A study of Mus musculus with 2 samples.

Results

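The cells described here are the CS BFUE cells of mouse fetal liver that carry few or no myeloid transcripts. They were chosen from the cells that the deposited cell table names CS BFUE, by keeping those with fewer than 5 transcript molecules of Mpo and fewer than 3 of Ly86, Csf1r and Ccr2 together. Molecules are counted by unique molecular identifiers (UMIs). The rule kept 87 of 122 CS BFUE cells, which is 87 of 3357 cells in the whole series. All 35 cells left out were left out by Mpo, the myeloperoxidase of granulocyte granules, and 0 by the monocyte genes.

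The series holds 2 single-cell RNA libraries of C57BL/6 mouse fetal liver at E14.5, made with a 10x 3' version 3 kit from cells that the labels call low in CD71 and CD24. One is a CITE-seq library, in which antibodies carrying DNA barcodes were bound to CD117 and CD71, and it holds the CS BFUE and CS CFUE cells. The other pooled cells of 4 isolations, among them FACS BFU-E (fluorescence-activated cell sorting) and PE-low, which are used here for comparison. The labels also describe a culture of 10 days in 100 uM dexamethasone or methanol. The sources used here do not say if the sequenced cells went through it, how cells were named CS BFUE, what CS and PE stand for or whether embryos were pooled. The series design also speaks of lineage depletion for the CITE-seq cells.

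Red cells arise from progenitors of which the BFU-E (burst-forming unit, erythroid) comes early and the CFU-E (colony-forming unit, erythroid), which needs erythropoietin to survive, comes late. Between these stages, genes shared with stem and multipotent cells are lost and the genes of the Epo receptor, heme synthesis, iron uptake and the red cell membrane skeleton come on. The labels give the barcodes of both antibodies, which are shown because they are the protein readout that sets this library apart; the whole of each oligo is the barcode and is in capitals. CD117 is the protein of Kit, the stem cell factor receptor, and CD71 that of Tfrc, the transferrin receptor. The antibody counts were not analysed here.
CD117 antibody oligo: TGCATGTCATCGGTG
CD71 antibody oligo: ACCGACCAGTAGACA

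The 87 cells held 2142645 UMIs, with a median of 24160 per cell (12115 to 39067). The same rule kept 192 of 195 CS CFUE cells (median 37518.5 UMIs), 156 of 233 FACS BFU-E cells (34069) and 156 of 208 PE-low cells (35776.5). Each pool is 1 sample, so no test between pools was made and no difference has a replicate check. Levels (CPM) are the UMIs of a gene summed over a pool, divided by all its UMIs and multiplied by 1000000. Ratios carry 95% exact conditional binomial intervals and shares of cells Clopper-Pearson ones, which hold counting error and nothing else. The libraries shared 0 cell barcodes. Transcripts of Xist, the X-inactivation RNA, were in 32 of the 87 cells and transcripts of 4 Y-linked genes in 50, with 1 cell holding both and 6 neither, so cells of both sexes are in the pool.

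Mpo chose the cells, and its values are a description. It was at 0 in 76 of the 87 kept cells and at 1 to 4 UMIs in 11. The highest value inside the rule was 4 UMIs, in 2 cells, and the lowest outside was 5. The 35 cells left out held between 5 and 133 UMIs, with a median of 17. The threshold did not fall in a gap between 2 kinds of cell: 7 kept cells held 3 or 4 UMIs and 4 removed cells held 5 to 7. The first component is 1 of 2 principal component coordinates per cell that the authors deposited. The 7 cells just inside lay at 23.4 to 38.0 on it and 6 of them carried Cd34; the 4 just outside lay at 32.4 to 42.6 and all 4 carried Cd34.

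The kept cells were not 1 uniform pool, and the authors' first component showed where they parted. No kept cell lay between 16.5 and 23.0. Below this gap were 73 cells (83.9%, 74.5 to 90.9), at 1.8 to 16.5. Above it were 11 cells at 27.7 to 41.0 that held all 63 Cd34 UMIs of the pool (12.6%, 6.5 to 21.5), 2 cells at 23.0 and 23.4, and 1 cell at 29.3, within the range of the Cd34 cells, that stood apart on the second component (0.8 against -5.3 or lower in every other kept cell). The 35 removed cells lay at 26.0 to 42.6, the range of the Cd34 cells, and 34 of them had a Cd34 UMI. The split at 20 was chosen after the data were seen and the component was computed by the authors from the expression values, so the differences between these groups of cells are a description with no test.

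**Figure D1:**
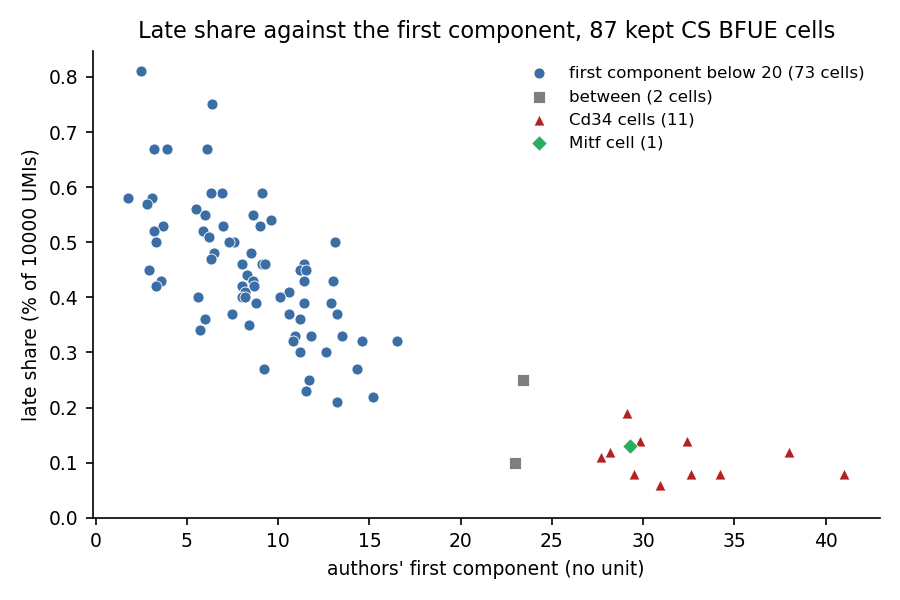
Each point is 1 of the 87 kept CS BFUE cells, placed by the authors' first component (no unit) and by the late share, the percent of 10000 UMIs that lie in CFU-E stage, heme and red cell membrane genes. The 73 cells below 20 (circles) lie between 0.21% and 0.81%, and the 11 Cd34 cells (triangles) between 0.06% and 0.19%.

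The 5 markers named for these cells did not mark the same cells. Kit was found in 81 of 87 cells, Car1 (a carbonic anhydrase) in 49, Muc13 (a membrane mucin) in 36, Gata2 (a transcription factor of stem and early progenitor cells) in 29 and Cd34 (a surface protein of stem and early progenitor cells) in 11. Kit was spread over the whole pool, at 126 CPM in the 73 cells (0 to 14 UMIs per cell, median 2) and 150 CPM in the 11 Cd34 cells (0 to 5, median 2). Cd34 was at 0 in all 73 cells, which allows a summed level of up to 1.61 CPM (3 counts), and at 1 to 10 UMIs in each of the 11 (median 6, 296 CPM). A cell without a Cd34 UMI may still hold the transcript, so this says only that Cd34 was not detected in the main body of these cells at this depth.

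Car1 and Muc13 went the other way from Cd34. Car1 stood at 142 CPM in the 73 cells, was found in 47 of them, and was at 0 in all 11 Cd34 cells. Within the 73 cells it was itself uneven, from 0 to 32 UMIs with a median of 1 and 10 or more in 10 cells. Muc13 stood at 34.3 CPM in the 73 cells (34 with a UMI, at most 7) and had 1 UMI in the 11. Gata2 was found in 21 of 73 cells (21.4 CPM) and in 6 of 11 (75.1 CPM), and the pair of cells between the groups held 4 and 10 UMIs, with none of Cd34.

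In the other pools these markers set the background for such shares. Of 192 CS CFUE cells, which were deeper, 1 had a UMI of Cd34, 4 of Muc13 and 8 of Gata2. With every cell thinned to 10000 UMIs, which left out 0 cells, Muc13 was in 26.4% of kept CS BFUE cells (17.6 to 37.0) and 0.521% of CS CFUE cells, and Gata2 in 16.1% (9.09 to 25.5) and 1.04%. Cd34 was in 11.5% (5.65 to 20.1) and 0.0%. Cells with a Cd34 UMI were also found in FACS BFU-E (12 of 156, at most 2 UMIs) and PE-low (9 of 156, at most 15 UMIs). In these pools 2 and 6 kept cells lay at 20 or over on the first component, so most or some of those cells lay below the gap. Adgrl4, an adhesion G protein-coupled receptor of endothelium and early progenitors, was in all 11 Cd34 cells of CS BFUE. Of all 156 kept cells in each other pool, it was in 3 of FACS BFU-E and 1 of PE-low.

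**Figure D2:**
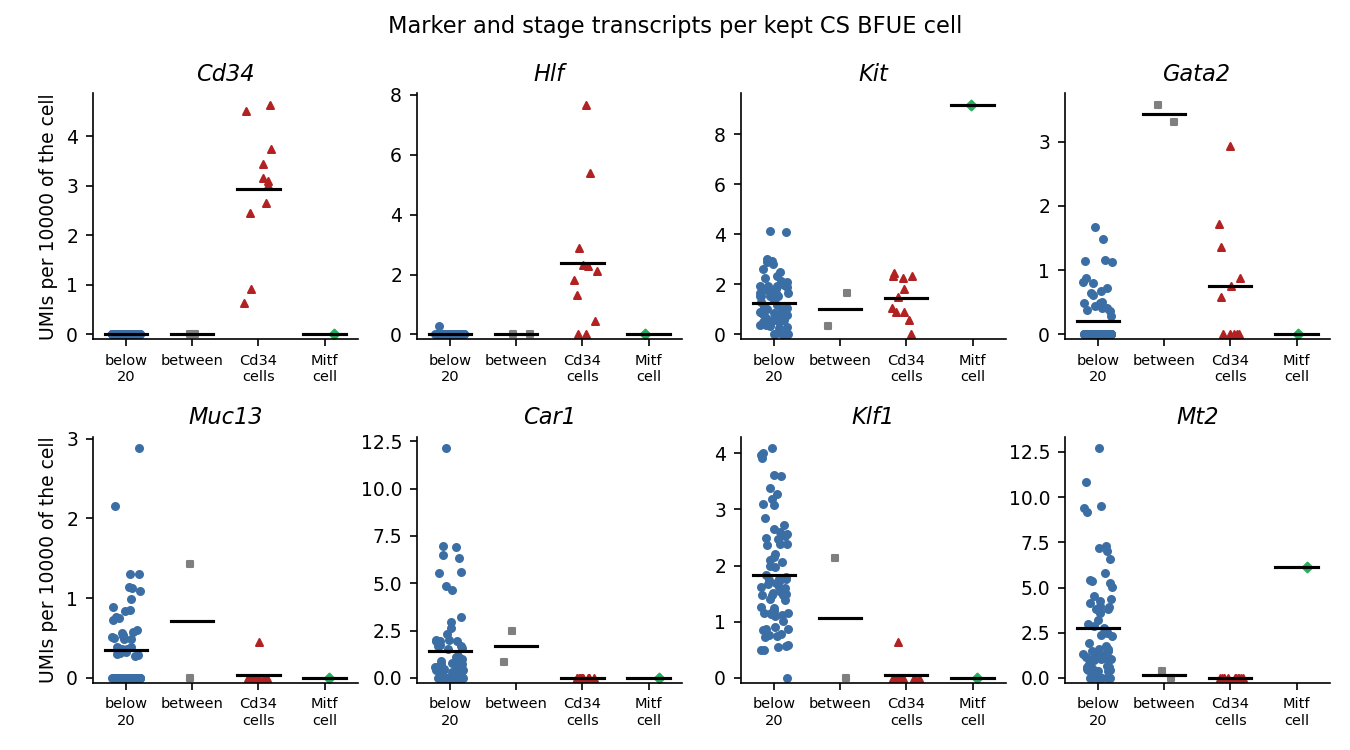
UMIs per 10000 of the cell for 8 genes in the 73 kept CS BFUE cells with a first component below 20, the 2 cells between, the 11 Cd34 cells and the 1 Mitf cell; each point is a cell and each bar a mean over cells. Cd34 and Hlf are higher in the Cd34 cells than in the 73 cells, and Car1, Muc13, Klf1 and Mt2 are lower.

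The Cd34 cells carried stem and multipotent cell transcripts and less of the erythroid programme than the 73 cells. Hlf, a transcription factor of stem cells, stood at 253 CPM against 0.536 in the 73 cells: 9 of 11 cells held 1 to 17 UMIs, and 1 of 73 held 1 UMI. Adgrl4 stood at 272 CPM, with 1 to 10 UMIs per cell, and was at 0 in the 73. Angpt1, the ligand of the receptor Tie2, stood at 113 against 4.29 CPM and Mecom, a stem cell transcription factor, at 28.1 against 0. The 16 stem and multipotent genes together stood at 1240 against 122 CPM. Per 10000 UMIs the Cd34 cells ranged from 4.96 to 23.0 and the 73 cells from 0.0 to 3.99, so the groups did not overlap. The groups were chosen by the first component and by Cd34, a stem cell gene, so this separation may follow in part from the choice. Over 2825 genes, the Cd34 cells were more than 1.5-fold higher in 455 (16.1%) and more than 1.5-fold lower in 401 (14.2%).

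Some abundant transcripts were also higher in these 11 cells, and the ranges of the first 2 overlapped or touched those of the 73. Tmsb4x, an actin-binding thymosin, stood at 1930 against 250 CPM, with 21 to 59 UMIs in the Cd34 cells and 0 to 23 in the 73. H2afy, the histone variant macroH2A, stood at 1440 against 330 CPM, with 17 to 49 UMIs against 1 to 17. Hmga2, a chromatin protein of fetal stem cells, stood at 258 against 28.9 CPM. Ifitm1, an interferon-induced membrane protein, stood at 333 against 4.29 CPM, and Ctla2a, a protease inhibitor, at 408 against 13.9.

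The erythroid lists were lower in the same 11 cells but not at 0. The CFU-E stage genes stood at 535 against 2540 CPM, with 2.7 to 9.01 UMIs per 10000 in the Cd34 cells and 11.6 to 47.5 in the 73, so the groups did not overlap. Heme synthesis genes stood at 455 against 1630 CPM, at 2.27 to 7.73 per 10000 against 5.99 to 23.5, and red cell membrane genes at 127 against 356 CPM, at 0.0 to 2.94 against 0.0 to 7.53, so both of these overlapped. Single genes ranged from absent to several-fold lower. Klf1, the erythroid Kruppel-like factor, was in 72 of 73 cells at 191 CPM and gave 1 UMI in the Cd34 cells. Epor, the erythropoietin receptor, was at 68.0 CPM in the 73 cells and at 0 in the 11, as were Ermap, a membrane protein of the erythroid blood group genes (167 CPM), and Smim1, which carries the Vel antigen (216 CPM). Gata1, the erythroid GATA factor, was lower rather than absent, at 114 against 23.5 CPM. Blvrb, a biliverdin reductase, stood at 642 against 18.8 CPM, and Cpox, an enzyme of heme synthesis, at 252 against 9.38. The long RNA Gm15915 stood at 526 CPM in the 73 cells and gave 1 UMI in the 11.

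Myeloid transcripts were low but present in the Cd34 cells. They held 22 of the 27 Mpo UMIs left in the pool, with 0 to 4 per cell. Prtn3, proteinase 3 of the same granules, was in all 11 cells, at 216 CPM against 16.6 in the 73. The 10 granulocyte genes together stood at 371 CPM against 22 in the 73 cells and 2250 in the removed cells. The removed cells were chosen by Mpo and held 892 of its UMIs, so their level follows in part from the rule. Per 10000 UMIs the Cd34 cells ranged from 1.33 to 7.55 and the 73 cells from 0.0 to 2.14. Elane, neutrophil elastase, was at 0 in the Cd34 cells. Spi1, which encodes the myeloid factor PU.1, was at 79.7 CPM against 4.29. The 16 monocyte and macrophage genes stood at 230 against 10.2 CPM, and the 17 lymphoid genes in the table at 93.8 against 6.97.

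Some further values of these cells stood out. Hbb-bt, an adult beta globin gene, was at 403 CPM in the Cd34 cells and 13.4 in the 73; 1 cell held 38 UMIs, and 3 cells held 10 or more. Hbb-bs and Hbb-bt are near-identical copies, so the split of reads between them is uncertain, but Hbb-bs was at 9.38 CPM in the same 11 cells. The 1 cell apart on the second component held 130 UMIs of Vim, 21 of Kit, 31 of Ptgds, 19 of Mitf and 10 each of Sox10, Dct and Ednrb, and 0 of Srgn. Mitf, Sox10, Dct and Ednrb are known as genes of the pigment cell lineage. That cell alone held 16.8% of the Vim UMIs of the 87 cells, and its G2/M genes stood at 25100 CPM against 10100 in the 73 cells.

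The comparison with CS CFUE asked what separates these early cells from the later stage in the same library. Against CS CFUE, 126 of 2772 genes (4.55%) lay past 1.5-fold higher in CS BFUE and 201 (7.25%) past 1.5-fold lower; the median log2 ratio was -0.07. To enter, a gene needed a mean of both levels of at least 50 CPM and to be seen in 10% or more of either pool's cells, so a gene at very low level in 1 pool entered only by being higher in the other. With the 14 cells above the gap left out, 107 of 2750 genes (3.89%) were higher and 179 (6.51%) lower, of which 94 and 168 were the same genes. The early and late lists used below overlap with what the pool names stand for, so their direction is no independent finding.

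Vim, the intermediate filament protein vimentin, had the highest ratio, 65.1-fold (47.4 to 91.9). It was in 77 of 87 cells with a median of 5 UMIs, and in 21 of 192 CS CFUE cells. Ramp1, a receptor activity-modifying protein, was 44.7-fold higher (26.9 to 79.6), at 99.4 against 2.23 CPM. Gmfg, an actin regulator of blood cells, was 38.6-fold higher (28 to 54.4), and Apoe, the lipid carrier apolipoprotein E, 28.7-fold (24.9 to 33.3), at 843 against 29.3 CPM. Without the 14 cells their log2 ratios were 5.73, 5.33, 5.11 and 4.90 against 6.02, 5.48, 5.27 and 4.85. The size of some ratios rested on which cells were used. With the 71 CS CFUE cells above 40000 UMIs left out the log2 ratio was 7.50 for Vim and 6.19 for Gmfg. With all cells of each pool and no rule applied, the log2 ratio of Vim was 4.99. That change also brought back the 35 removed CS BFUE cells.

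Other early genes were the phosphatase Ptpn18 at 27.7-fold (19.5 to 40.3), Cmtm7 at 12.9-fold (10.8 to 15.4), Ass1, an enzyme of arginine synthesis, at 10.0-fold (8.29 to 12.1) and Arhgdib at 9.07-fold (7.86 to 10.5). Ass1 went from a log2 ratio of 3.32 to 4.15 with the CS CFUE cells above 40000 UMIs left out. S100a10, Mef2c, Ptprcap and Tmsb4x made up the 12 highest, with log2 ratios of 3.07, 3.06, 2.94 and 2.87. Tmsb4x depended on the Cd34 cells more than the others: without the 14 cells its log2 ratio was 2.01. Cmtm7 and S100a10 were among the broadest, in 86 and 87 of the 87 cells.

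Of the early erythroid progenitor list, 6 of 14 genes entered and all 6 were past 1.5-fold higher (median log2 ratio 1.12). They were Vim, Car1 (4.4-fold, 3.66 to 5.30), Myb (2.46-fold, 2.25 to 2.69), a transcription factor of progenitor growth, Kit (1.93-fold, 1.66 to 2.23), Zfp36l2 (1.92-fold), an RNA-binding protein known in BFU-E self-renewal, and Samsn1 (log2 ratio 0.70). Without the 14 cells 5 of 6 were higher. Muc13, Gata2, Cd34, Hmga2 and Meis1 did not enter at this level; Muc13 stood at 32.2 against 0.556 CPM.

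**Figure D3:**
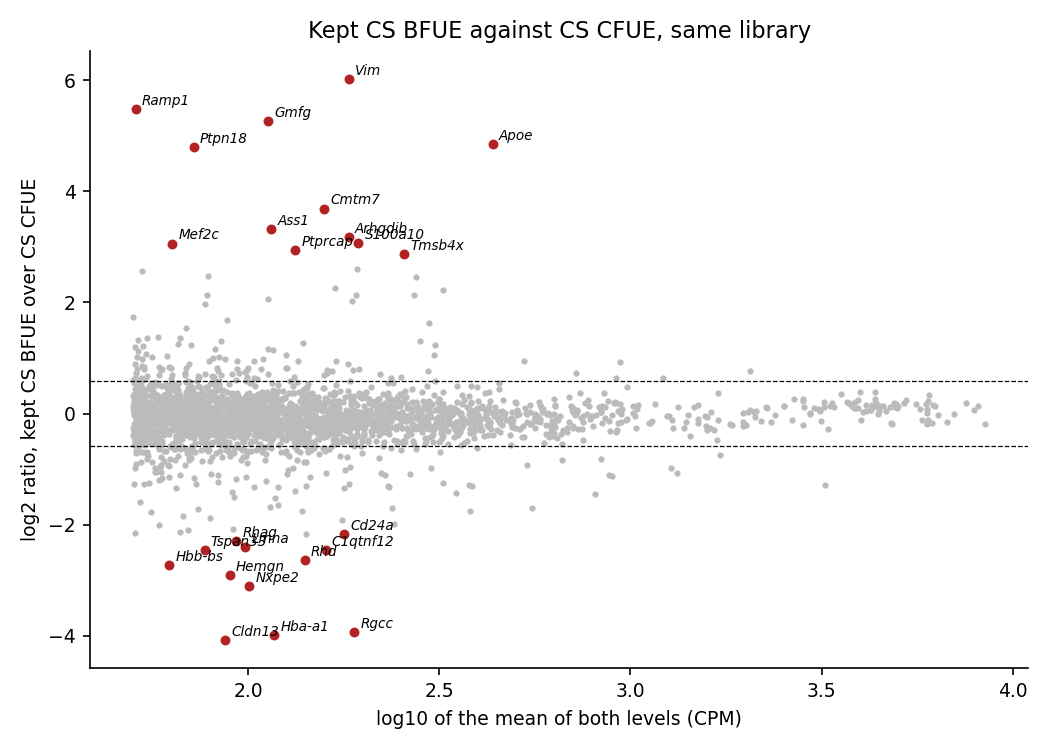
Log2 ratio of the level in kept CS BFUE over that in CS CFUE against the log10 mean of both levels, for genes with a mean of at least 50 CPM and a UMI in both pools. Dashed lines mark 1.5-fold; red points are the 12 genes at either end, from Vim at 6.02 to Cldn13 at -4.07.

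On the lower side stood genes of the CFU-E stage, of which 17 of 18 that entered (26 listed) were past 1.5-fold lower, with a median log2 ratio of -1.67, or -1.55 without the 14 cells. Cldn13, an erythroid claudin, was 16.8-fold lower (10.9 to 27.2), at 9.80 against 164 CPM, and in 17 of 87 cells against 191 of 192. Rgcc, a regulator of the cell cycle, was 15.3-fold lower (11.5 to 20.6) and Nxpe2 8.55-fold (6.35 to 11.8). Hemgn, an erythroid nuclear protein, was 7.50-fold lower (5.57 to 10.3). Rhd and Rhag, membrane proteins of the Rh complex, were 6.17-fold and 4.94-fold lower. C1qtnf12, Tspan33 and Lmna were 5.50, 5.45 and 5.26-fold lower.

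Tfrc and Cd24a, genes of antigens read or gated in this study, belong to the same side. Kit, whose protein CD117 was also read, went the other way, at 136 against 70.8 CPM, and is in the early list count above. Since the gates may have used these antigens, the direction of these genes is not counted as a finding. Tfrc stood at 74.2 against 278 CPM, 3.74-fold lower (3.18 to 4.43), and was in 62 of 87 cells against 192 of 192. Cd24a stood at 64.9 against 292 CPM, 4.50-fold lower (3.79 to 5.38).

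All 6 heme synthesis genes that entered (13 listed) were past 1.5-fold lower, with a median log2 ratio of -1.15. Fech, the ferrochelatase that inserts iron, was 2.66-fold lower (2.18 to 3.29), Cpox 2.48-fold (2.25 to 2.73) and Alad 1.98-fold (1.79 to 2.20). Alas2, the erythroid first enzyme of the pathway, gave 0 UMIs in the 87 cells and stood at 1.81 CPM in CS CFUE. Of 5 red cell membrane genes that entered, 3 were lower: Add2 (4.38-fold), an adducin, Tspo2 (3.12-fold) and Ank1 (3.00-fold), the ankyrin of the membrane skeleton.

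The adult globin genes were also lower, 3 of 3 that entered. Hba-a1 was 15.7-fold lower (11 to 23.4), at 14 against 220 CPM, and its near-identical copy Hba-a2 stood at 8.40 against 79.4 CPM. Hbb-bs was 6.60-fold lower (4.70 to 9.54). Hbb-bt was 2.15-fold lower (1.77 to 2.65) over the 87 cells, and its log2 ratio went from -1.11 to -3.08 when the 14 cells were left out, since the Cd34 cells held 86 of its 113 UMIs.

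Iron and growth genes differed less. Of 7 iron genes that entered, 4 were lower, among them both ferritin subunits: Fth1 stood at 1870 against 4570 CPM, 2.44-fold lower (2.36 to 2.52), and Ftl1 at 862 against 1690. Without the 14 cells 3 were lower, Steap3 then having a log2 ratio of -0.51. Of 16 transcription factors that entered, 3 were higher and 6 lower: Mef2c (log2 ratio 3.06) and Myb were higher, and E2f4 (2.48-fold) and Gfi1b (2.13-fold), a repressor of erythroid and megakaryocytic cells, were lower. Gata1 stood at 104 against 125 CPM, inside 1.5-fold. Epor was 2.50-fold lower (2.08 to 3.03), while Jak2, its kinase, stood at 28 against 28.6 CPM.

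Cell cycle genes were mostly between the thresholds, as were 88.2% of all 2772 genes that entered. Of 32 S phase genes that entered, 3 were lower (Rrm2, Cdc6 and Mcm2, 1.53 to 1.70-fold) and 0 higher, with a median of -0.16; of 38 G2/M genes, 4 were lower (Aurka, Ccnb1, Plk1 and Cdc20, 1.51 to 1.72-fold) and 0 higher. Ccne1, the G1/S cyclin E1, was 3.66-fold lower (2.88 to 4.71), at 34.1 against 125 CPM. Cdk6 and Myc, drivers of growth, were 1.70-fold (1.52 to 1.91) and 1.62-fold higher. The glycolysis list held a swap of pyruvate kinases: Pklr, the red cell and liver form, was 4.26-fold lower (3.26 to 5.68), and Pkm, the form of most other tissues, 1.73-fold higher (1.55 to 1.93). Pkm stood at 619 CPM in the Cd34 cells and at 188 in the 73, and without the 14 cells it was no longer past 1.5-fold, at a log2 ratio of 0.45.

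Markers of other cell types were low over the kept cells as a whole, but not equally low in each group of cells. The 10 hepatocyte genes together stood at 42.5 CPM in CS BFUE (0.0 to 1.78 per 10000 UMIs per cell) and 182 in CS CFUE (0.0 to 158), but at 3.67 in FACS BFU-E and 4.43 in PE-low. The 17 megakaryocyte genes in the table stood at 169 against 96.7 CPM in CS CFUE, with Pf4 at 0 and Itga2b, the platelet integrin, at 12.6 against 2.09 CPM. Of 12 endothelial and stromal genes 5 were at 0. Srgn, the serglycin core of granules in blood cells, was the only member of the mast cell and basophil list to enter and was 4.06-fold higher (3.62 to 4.57); it was in 84 of 87 cells, and 3 of the 7 list genes in the table were at 0. The part of other cells in the results was not tested.

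Variation among the 87 cells was measured after thinning each cell to 10000 UMIs, as the variance of a gene divided by its mean, which is near 1 for counting alone. Where cells differ in a gene, this measure also rises with the level of the gene, so its ranking favours abundant genes. Of 1458 genes with a mean of at least 1 thinned UMI, 79 (5.42%) had a variance at least 2 times the mean. Malat1, a nuclear RNA, came first (14.6), followed by Vim (11.8), Tmsb4x (9.89) and Hist1h1b (9.50), a linker histone made in S phase. Mitochondrial genes mt-Co3 (8.71), mt-Atp6 (8.05), mt-Co2 (6.49), mt-Cytb (6.44) and mt-Nd1 (5.46), Xist (7.50), Mt1 (6.73), Gm42418 (6.04), Apoe (5.66), H2afy (5.30) and Cenpf (5.10) made up the 15. A single cell set the place of Vim: with the top cell of each gene left out Vim was at 3.87, Cenpf at 2.41 and Malat1 at 10.2. At 15000 UMIs per cell Vim was at 20.4.

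Leaving out the 14 cells above the gap lowered the value of some of these genes far more than that of others. In the 73 cells alone 62 of 1472 genes (4.21%) passed 2 times the mean. H2afy went from 5.30 to 1.53, Tmsb4x from 9.89 to 2.79 and Vim from 11.8 to 4.10. Hist1h1b stayed at 9.44, with 0 to 123 UMIs per cell and a median of 36, and mt-Co3 at 8.12. Mt1 stayed at 4.98, Mt2 was at 4.19 and Apoe at 5.24. Variance over mean in FACS BFU-E and PE-low cells below 20, thinned alike, was 2.48 and 2.66 for Mt1, 8.01 and 9.79 for Hist1h1b, and 6.65 and 10.1 for Apoe. Mt1 stood at 1450 CPM in the 73 cells, against 638 and 659 CPM in all kept FACS BFU-E and PE-low cells. Its higher value here therefore does not show more variation relative to its level.

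**Figure D4:**
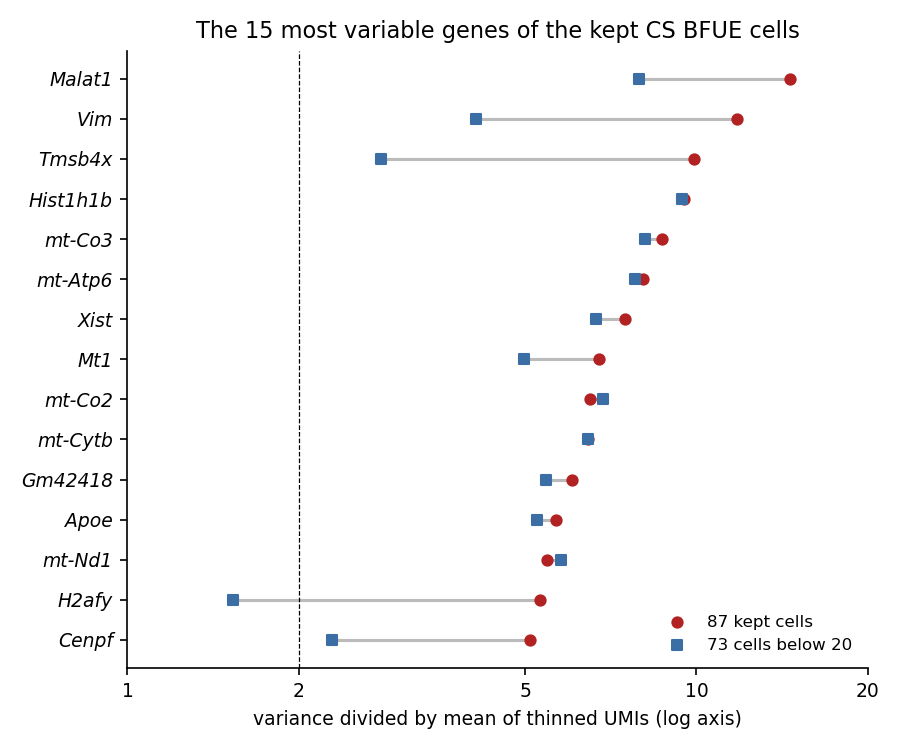
Variance divided by mean of thinned UMIs (log axis) for the 15 genes with the highest value in the 87 kept CS BFUE cells (circles), with the value in the 73 cells below 20 (squares). The dashed line marks 2; H2afy is at 5.30 and 1.53, and Hist1h1b is at 9.50 and 9.44.

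The 73 cells could be ordered by the late share, the percent of a cell's thinned UMIs in the 53 genes of the CFU-E stage, heme synthesis and red cell membrane lists. It ranged from 0.21% to 0.81% with a median of 0.43%, against 0.50% to 1.82% (median 1.06%) in CS CFUE, so the upper end of the 73 cells overlapped the lower end of CS CFUE. Over the 73 cells its Spearman rho was -0.66 with the authors' first component and 0.25 with the UMIs of the cell. Of 1447 genes outside the lists, 25 (1.73%) had a rho of at least 0.4 with the late share over the 87 cells and 12 (0.829%) of at most -0.4. In the 73 cells alone 5 of 1459 (0.343%) were at least 0.4 and 5 (0.343%) at most -0.4, so most of the first count came with the 14 cells. These are descriptions of cells of 1 library that share depth and the total to which each cell was thinned.

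Genes that went down along this order within the 73 cells were Vim (rho -0.58), Apoe (-0.58), Gmfg (-0.44), Srgn (-0.42) and Rpl28 (-0.41), and those that went up were Prdx2 (0.46), a red cell peroxiredoxin, Mt1, Ifngr1, Pum3 and Eif4a1 (0.42 each). Vim stood at 584 CPM in the 24 cells with the lowest late share, 229 in the 25 in the middle and 110 in the 24 with the highest. Apoe stood at 1260, 957 and 458 CPM in the same cells and Srgn at 389, 266 and 134. Vim and Apoe were not at their highest in the Cd34 cells, where the late share was lower still: they stood at 314 and 521 CPM there, while Srgn stood at 633. In the FACS BFU-E and PE-low cells below 20, which were not used to choose these genes, 3 of the 5 negative genes were at most -0.4 in FACS BFU-E and 5 of 5 in PE-low, and 2 of the 5 positive genes were at least 0.4 in each. Over all genes compared, 11 of 1390 were at most -0.4 and 8 at least 0.4 in FACS BFU-E. The same counts in PE-low were 22 and 14 of 1405. Vim had -0.57 and -0.74 and Apoe -0.59 and -0.75, while Ifngr1 had 0.10 and 0.14.

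The metallothioneins Mt1 and Mt2, which bind zinc and other metals, moved together. Their thinned UMIs had a rho of 0.63 over the 73 cells. Mt1 stood at 1150, 1370 and 1780 CPM along the late share and Mt2 at 136, 254 and 464. In CS CFUE they stood at 2150 and 847 CPM, 1.67-fold (1.61 to 1.74) and 3.24-fold (2.97 to 3.54) above CS BFUE. Without the 14 cells above the gap, the log2 ratio of Mt1 in CS BFUE over CS CFUE went from -0.74 to -0.57. Mt1 was then no longer past 1.5-fold. That of Mt2 went from -1.70 to -1.54. In the Cd34 cells Mt1 was at 51.6 CPM (0 to 3 UMIs) and Mt2 at 0, against 5 to 117 and 0 to 45 UMIs per cell in the 73.

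**Figure D5:**
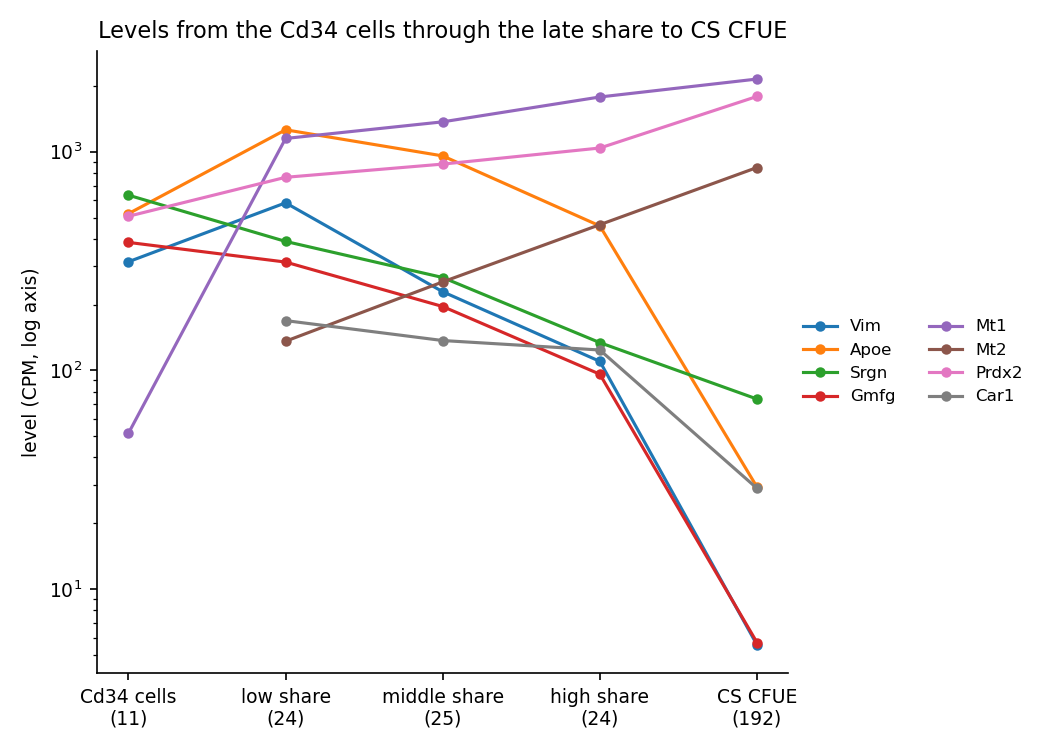
Levels (CPM, log axis) of 8 genes in the 11 Cd34 cells, in the 73 cells below 20 split by late share into 24, 25 and 24 cells, and in the 192 CS CFUE cells. Vim goes from 584 to 110 CPM and Mt2 from 136 to 464 CPM across the 73 cells; a missing point is a level of 0.

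The promoters of both genes are shown because these members moved together, from RefSeq on build GRCm38.p6, from 250 bases before to 50 after an annotated start, plus strand, with 2 of 2 genes matched. Capitals mark TGCACNC and TGCGCNC on either strand, the core of the metal response element bound by the zinc-sensing factor MTF1. Both forms share their letters apart from 1, and no other motif was searched. The Mt1 window holds 3 matches and the Mt2 window 4. At least 1 match is in 25.7% of the 32851 promoter windows of this length, at least 3 in 1.97% and at least 4 in 0.517%. A match is a description of letters, not a site.
Mt1, chr8:94178839-94179138: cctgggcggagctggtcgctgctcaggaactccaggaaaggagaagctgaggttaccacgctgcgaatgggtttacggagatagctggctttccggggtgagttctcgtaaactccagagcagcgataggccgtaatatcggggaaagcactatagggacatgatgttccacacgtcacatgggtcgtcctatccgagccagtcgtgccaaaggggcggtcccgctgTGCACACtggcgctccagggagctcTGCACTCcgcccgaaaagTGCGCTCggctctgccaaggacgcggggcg
Mt2, chr8:94172368-94172667: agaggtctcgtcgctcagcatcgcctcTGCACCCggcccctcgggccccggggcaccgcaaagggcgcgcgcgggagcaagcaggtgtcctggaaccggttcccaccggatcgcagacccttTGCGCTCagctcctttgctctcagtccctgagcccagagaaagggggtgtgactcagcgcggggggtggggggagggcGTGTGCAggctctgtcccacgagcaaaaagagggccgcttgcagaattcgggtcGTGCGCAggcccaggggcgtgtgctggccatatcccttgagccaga

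Against the early pools of the other library, the 12 genes furthest above FACS BFU-E held 9 ribosomal protein genes. Against FACS BFU-E, 144 of 2930 genes (4.91%) lay past 1.5-fold higher in CS BFUE and 343 (11.7%) lower; against PE-low, 144 of 2959 (4.87%) were higher and 392 (13.2%) lower. The median log2 ratio was -0.25 and -0.28, and with ratios centred on it the split turned: 260 higher and 68 lower, and 262 higher and 56 lower. Uncentred and without the 14 cells, 137 (4.71%) were higher and 317 (10.9%) lower than in FACS BFU-E, and 142 (4.83%) higher and 354 (12%) lower than in PE-low. Library, isolation and pool cannot be told apart here, since CS BFUE lies wholly in 1 library and the comparators in the other. The later pools of the same libraries, CS CFUE against FACS CFU-E, are therefore given beside each value as the later-stage ratio.

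Rps27, Rps29 and Rps28, proteins of the small ribosomal subunit, were 6.53-fold (5.42 to 7.90), 4.37-fold (4.22 to 4.53) and 4.09-fold (3.94 to 4.25) above FACS BFU-E, with log2 later-stage ratios of 2.51, 2.07 and 1.98. Of 80 ribosomal protein genes that entered, 31 were higher than in FACS BFU-E and 1 lower (median log2 ratio 0.43); together they took 323000 CPM in CS BFUE and 237000 in FACS BFU-E. Pfn1, profilin, was 3.82-fold higher with a later-stage log2 ratio of 1.97. Many ribosomal protein genes have near-identical pseudogenes, so the reads given to each are uncertain. Jun, an immediate early transcription factor, was 8.94-fold lower (6.58 to 12.4), at 20.1 against 179 CPM, with a later-stage log2 ratio of -2.55. In PE-low it stood at 5.35 CPM, below CS BFUE, so the early pools of the other library differed among themselves in this gene.

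Of the 6 early erythroid genes that entered, 1 was past 1.5-fold higher than in FACS BFU-E and 2 higher than in PE-low. These calls and the ratios below are not centred on the median log2 ratios of -0.25 and -0.28. Calls near 1.5-fold, such as that of Klf1, depend on this choice. Samsn1 stood at 105, 55.7 and 48.3 CPM in CS BFUE, FACS BFU-E and PE-low (log2 ratios 0.92 and 1.12), and Kit at 136, 103 and 87.6 (0.40 and 0.64). Vim stood at 362, 424 and 428 CPM in CS BFUE, FACS BFU-E and PE-low, Apoe at 843, 825 and 880, Myb at 401, 408 and 395 and Gata1 at 104, 98.2 and 104, all inside 1.5-fold. Car1 stood at 127, 185 and 181 CPM and Muc13 at 32.2, 62.6 and 47.2. Klf1 was lower at 170 against 272 and 278 CPM (log2 ratios -0.68 and -0.71, later-stage -0.45). In the 73 cells alone Klf1 stood at 191 CPM, inside 1.5-fold of both pools. Igf2bp1, a fetal RNA-binding protein, was lower at 30.3 against 92.6 and 86.9 CPM (3.05-fold and 2.86-fold, later-stage log2 ratio -0.60). Mt1 was 2.02-fold higher than in FACS BFU-E (1.92 to 2.12) and Mt2 2.44-fold (2.16 to 2.75), with later-stage log2 ratios of 1.13 and 1.03. Rgcc was 3.64-fold below PE-low, with a later-stage log2 ratio of -0.59.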

How the data were processed

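Natural log expression values of both libraries came in 1 table deposited by the authors, with a cell table with names and 2 corrected component coordinates, a score per the file headers. Cell Ranger 4.0.0 and Scanpy, with build mm10, are named per the submitters' processing notes; how cells were filtered and doublets treated is not stated there, and no doublet caller was run here. Undoing the log gave 10000 per cell, and division by each cell's lowest value above 0, taken as 1 UMI, gave whole numbers within 0.02 for 100% of 16419767 values. Cells were assigned to the CITE-seq library by barcode suffix, by elimination. The members, the 26 gene lists (469 of 479 entries in the table), the comparisons and the alternatives were chosen with earlier results of these data known. The split on the first component, the cell groups made from it or from the late share, and the genes named for those groups were chosen after their values were seen.

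Named genes are the rule's genes and markers, the 12 highest and 12 lowest ratios per comparison among genes past 1.5-fold, up to 4 members per list by ratio against CS CFUE, the 15 with the highest variance over mean and the 12 highest and lowest rho, with Kit, Tfrc and Cd24a. A few other list members, such as Jak2, Alas2, Jun and Itga2b, were named after their values were seen. A level of 0 has a floor of 3 counts. Ratios, thinning (without replacement, seed 1) and intervals were computed with Python 3.11.15, numpy 2.4.6 and scipy 1.17.1 and tested on simulated data. Each pool has 1 sample, so no model was fitted.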

Additional observations from a re-analysis of the deposited data

How the results depend on the processing

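No paired analysis was possible because each pool is 1 sample and no result comes from a test. Counts depended on the filter on low levels and, against the other library, on centring. Against CS CFUE, 126 higher and 201 lower genes became 373 and 418 at a mean of at least 20 CPM, 55 and 91 at 100 CPM, and 2635 and 1314 with no filter; with 50 CPM in either pool 199 were higher. Against FACS BFU-E, 343 lower became 759 and 155, and with no filter 1171 were higher and 2362 lower; against PE-low, 392 lower became 841 and 169, and with no filter 1285 and 2652. Centring on the median ratio gave 260 and 68 against FACS BFU-E, 262 and 56 against PE-low, and 160 and 162 against CS CFUE, where 38.5% of calls were higher before and 49.7% after. At 15000 UMIs per cell, 138 genes rather than 79 passed 2 times the mean and 23 rather than 12 had a negative rho past 0.4; unthinned, 67 rather than 25 had a positive one. An alternative added after seeing the data, without the 14 cells, left 5 positive and 5 negative. The other alternatives kept every count within 1.5 times, and no named gene's called ratio or rho turned its sign under the alternatives that gave it a value. The fewer UMIs of CS BFUE cells limit low genes: 3 counts are 1.40 CPM.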
